A study of Nannospalax ehrenbergi and Mus musculus with 25 samples.

Results

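The small leucine-rich proteoglycans (SLRPs) were followed as 10 genes, namely Dcn, Bgn, Aspn, Lum, Fmod, Kera, Omd, Prelp, Ogn and Chad. They were picked by their symbol, and all 10 were found in both gene tables, out of 27988 genes in Spalax and 47593 in mouse. Of these, 5 (Aspn, Chad, Kera, Lum and Omd) had been selected on these same granuloma and fibrosarcoma libraries by the study. Comparisons among the Spalax tumor-bearing animals are therefore given below as a description. No p-value is given for a member there, and where calls are counted the share of all genes stands beside them and nothing is read from the count. Libraries came from Spalax, a blind mole rat that lives underground, labelled Nannospalax ehrenbergi and caught in the field, and from C57BL/6 mice. The carcinogen 3-methylcholanthrene (3MCA) was injected once under the skin of the left neck flank, and animals with a growth gave 2 libraries each, the growth itself (injected side, IS) and muscle of the opposite flank (uninjected side, UIS).

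Spalax control comprised 4 untreated females. Spalax tolerant comprised 4 animals (1 female and 3 males) sampled on the injected side 18 or 30 months after 1 mg of 3MCA, without a growth. Granuloma IS and UIS came from 2 females (animals 600 and 976) at 14 and 16 months, and fibrosarcoma IS and UIS from the female 2240 at 18 months and the male 2230 at 30 months, all after the same dose. The age of treated Spalax was estimated as 2 to over 10 years. Mouse control comprised 3 untreated males (M1, M2 and M5), and mouse IS and UIS came from 3 males with fibrosarcoma (1019, 1023 and 512) at 14, 12 and 11 weeks after 200 µg of 3MCA. Mice were 3 to 4 months old. Each replicate is 1 animal. In these bulk samples fewer cells of a type and less RNA per cell cannot be told apart.

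SLRPs are secreted proteins whose leucine-rich repeats bind collagen fibrils and set their diameter and spacing. Dcn (decorin), Bgn (biglycan) and Aspn (asporin) form class I, of which decorin and biglycan carry chondroitin or dermatan sulfate chains. Class II holds Lum (lumican), Fmod (fibromodulin), Kera (keratocan), Omd (osteomodulin) and Prelp, several of which carry keratan sulfate. Ogn (osteoglycin) belongs to class III and Chad (chondroadherin) to class IV. Several members also bind growth factors of the TGF-beta family. In muscle they are made by the fibroblasts of the connective tissue, and Kera, Fmod and Chad are abundant in tendon-like or cartilage-like matrix.

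In the mouse genome (GRCm38, GENCODE vM21) 3 of the genes lie next to one another on chromosome 10 in the order Dcn (chr10:97479609-97518143), Lum (chr10:97565128-97572703) and Kera (chr10:97606879-97613692), all on the plus strand. Aspn (chr13:49544443-49567565), Omd (chr13:49582462-49592822) and Ogn (chr13:49608046-49624501) form a second cluster, also on the plus strand. Prelp (chr1:133910304-133921414, minus strand) and Fmod (chr1:134037254-134048277, plus strand) are neighbours on chromosome 1. Bgn (chrX:73483602-73495933) and Chad (chr11:94565047-94569127) stand alone. Of the exon bases of Prelp 9.68% lie under the gene Gm15851 on the other strand, and of those of Aspn 0.297% under Cenpp, and the other 8 genes share no exon base with another gene. The strand setting of the counting was not given in the sources used here.

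Among the encoded mouse proteins the closest relatives were Dcn and Bgn, with 56.4% identical residues over 353 aligned, followed by Kera and Prelp (53.3%) and Bgn and Aspn (53%). A stretch of 60 bases around the longest run shared by the Dcn and Bgn coding sequences is shown. The ratio of these 2 genes is used below and rests on telling their reads apart. The longest run of bases that their coding sequences share is 17, and over the 45 pairs of members the longest run shared by 2 transcripts was 10 to 17 bases, against 101 sequencing cycles. Only mouse sequences were compared, so the separation of Spalax reads was not examined. The stretch is printed in coding orientation with the shared run in capitals. The Dcn stretch lies in exon 7 of 8 (chr10:97513654-97513713, plus strand) and that of Bgn in exon 7 of 9 (chrX:73493255-73493314, plus strand), and 48 of the 60 bases are identical.
Dcn: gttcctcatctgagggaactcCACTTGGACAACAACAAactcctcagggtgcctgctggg
Bgn: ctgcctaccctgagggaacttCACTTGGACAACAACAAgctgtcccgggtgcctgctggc

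Depth was 17025447 to 23386729 reads per library in Spalax and 22143060 to 31179183 in mouse. Values are normalised counts, which are read counts divided by 1 size factor per library. The label of muscle was checked with its markers. The summed normalised counts of the skeletal muscle list were 728044 to 2867870 in the 12 Spalax libraries of control, tolerant and UIS and 123 to 2492 in the 4 Spalax IS libraries, and 1006240 to 3954240 in mouse control and UIS against 100.3 to 48381 in mouse IS. The IS libraries, although labelled as muscle, thus held little muscle RNA. Fibroblast markers stood at 118800 to 1822650 in Spalax IS and at 141312 to 153930 in mouse IS. Tolerant 2251 stood apart from the other 3 tolerant libraries, with a fibroblast sum of 164571 against 3152 to 24829, so results for this group are given with and without it. The library granuloma UIS 976 has a read label with a different animal number, so fits of members that use it are also given without it. The gene lists and the search for like genes below are given with it only.

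Together the 10 genes took 709 to 1262 RPM (reads per 1000000 reads of the library) in Spalax control and 820.5 to 1623 in mouse control. In granuloma IS they reached 8352 in animal 600 and 7177 in animal 976, against 608 and 439.7 in UIS of the same animals. In fibrosarcoma IS they took 5668 in animal 2230 but 633 in animal 2240, whose UIS had 1378. In mouse IS they took 1167 to 4375, against 135 to 497 in mouse UIS. Both granuloma IS libraries were thus above all 14 other Spalax libraries, whereas the 2 fibrosarcoma IS libraries lay on both sides of their UIS.

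**Figure D1:**
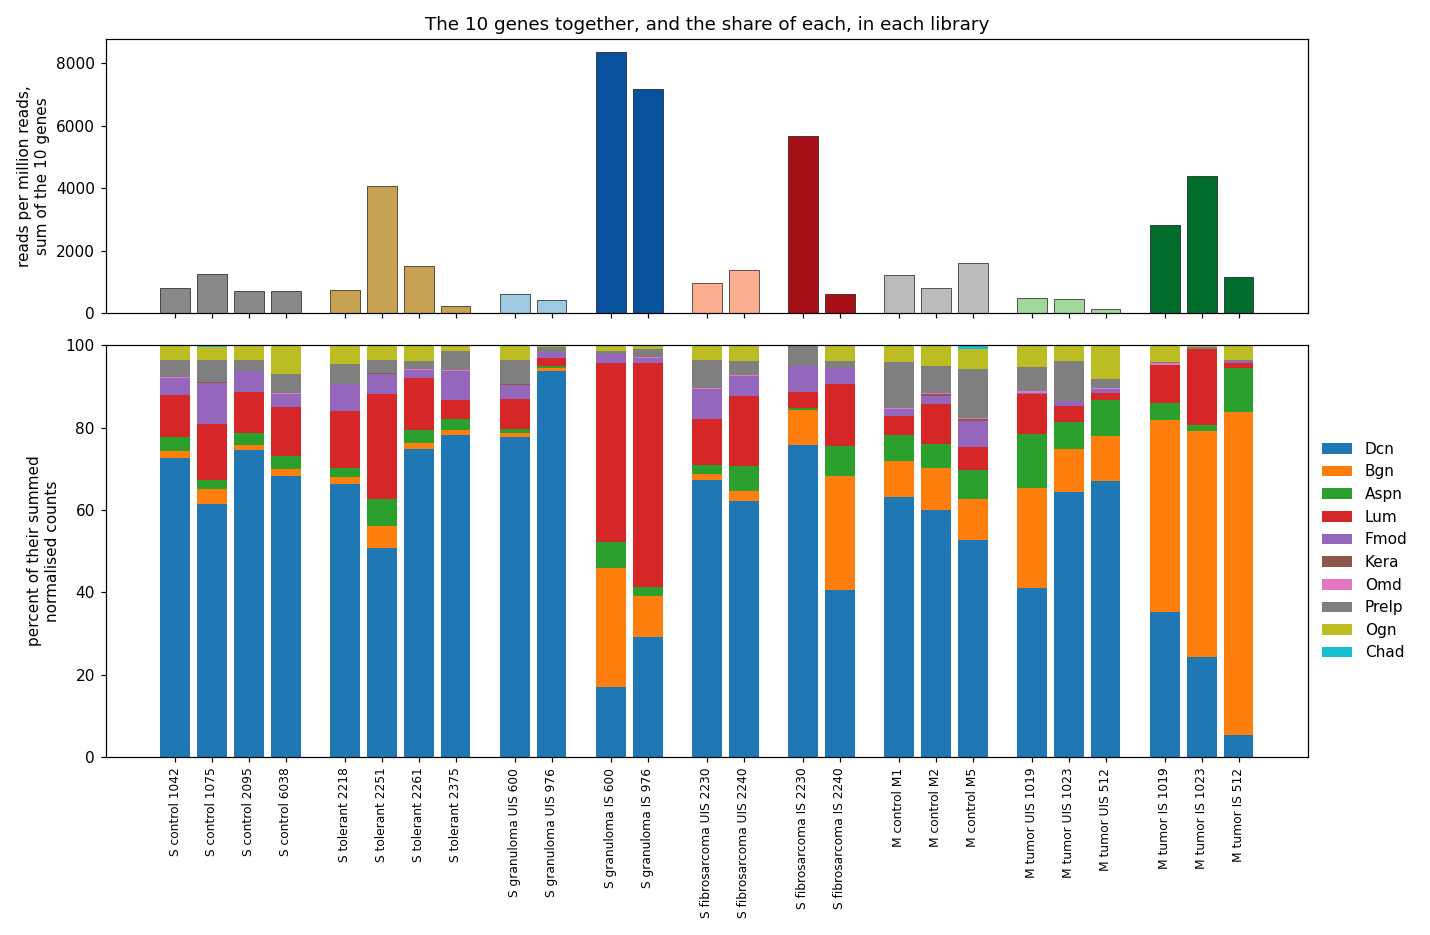
The upper bars give the sum of the 10 genes in each library, in RPM, and the lower bars the percent of their summed normalised counts that each gene held, by group and animal (S, Spalax; M, mouse). Dcn held 61.6% to 74.5% in Spalax control, Lum 43.4% and 54.4% in granuloma IS, and Bgn 46.7% to 78.5% in mouse IS.

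The composition of the family also differed. In Spalax control Dcn held 61.6% to 74.5% of the summed normalised counts, Lum 9.96% to 13.5% and Bgn 1.21% to 3.54%. In granuloma IS Dcn held 16.9% and 29.1%, while Lum held 43.4% and 54.4% and Bgn 29.1% and 9.94%. In mouse IS Bgn held 46.7%, 54.7% and 78.5%, against 10.3% to 24.5% in mouse UIS and 8.78% to 10.1% in mouse control. These shares are of counts and favor long transcripts. For levels per kilobase the length was the union of all annotated exons of a gene. It was 5838 bases for Dcn, 6099 for Bgn and 2448 for Lum, and the ranks depend on this choice of length. Per kilobase of exon in mouse, the level of Dcn was the highest of the 10 in control, with 2787 ± 514 normalised counts (SD, n = 3), and that of Bgn was sixth, with 444 ± 127 (SD, n = 3). In mouse IS Bgn had the highest level per kilobase, with 3443 ± 1840 (SD, n = 3), before Lum with 2015 ± 2335 and Dcn with 1628 ± 1302, and these 3 overlapped among animals.

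Among class I, Dcn was the main member of the sum in muscle. Its normalised counts were 14158, 15548, 14371 and 11478 in the 4 Spalax controls, 11134.5 and 9818 in UIS of granuloma animals, and 21124 and 28090.5 in their IS. In fibrosarcoma UIS it stood at 15691 (2230) and 19046 (2240), and in IS at 55605 and 3483. The 2 fibrosarcomas thus held the highest and the lowest Dcn value of Spalax. In mouse, Dcn was 16870, 13018 and 18929 in control, 5456, 7462 and 3048 in UIS of 1019, 1023 and 512, and 12647, 15028 and 833 in IS. Mouse 512 was lower in IS than in UIS, and the other 2 mice were higher.

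Bgn was higher in IS than in UIS in all 7 tumor-bearing animals. In granuloma it was 149.5 and 54.2 in UIS and 36319 and 9593 in IS. Fibrosarcoma had 319.9 and 678 in UIS and 6164 and 2360.0 in IS of 2230 and 2240. In mouse it was 3258, 1192 and 489 in UIS and 16776, 33720 and 12501 in IS. IS and UIS did not overlap in any of the 3 growths, and the control values were 233 to 895 in Spalax and 2183 to 3597 in mouse. Aspn, which binds collagen and TGF-beta, was 152 and 48.3 in granuloma UIS and 7883 and 2078 in IS. Fibrosarcoma had 557 and 1905 in UIS and 426 and 629 in IS, each animal being lower in IS. In mouse UIS (1721, 756 and 406) and IS (1443, 1003 and 1722) it overlapped.

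**Figure D2:**
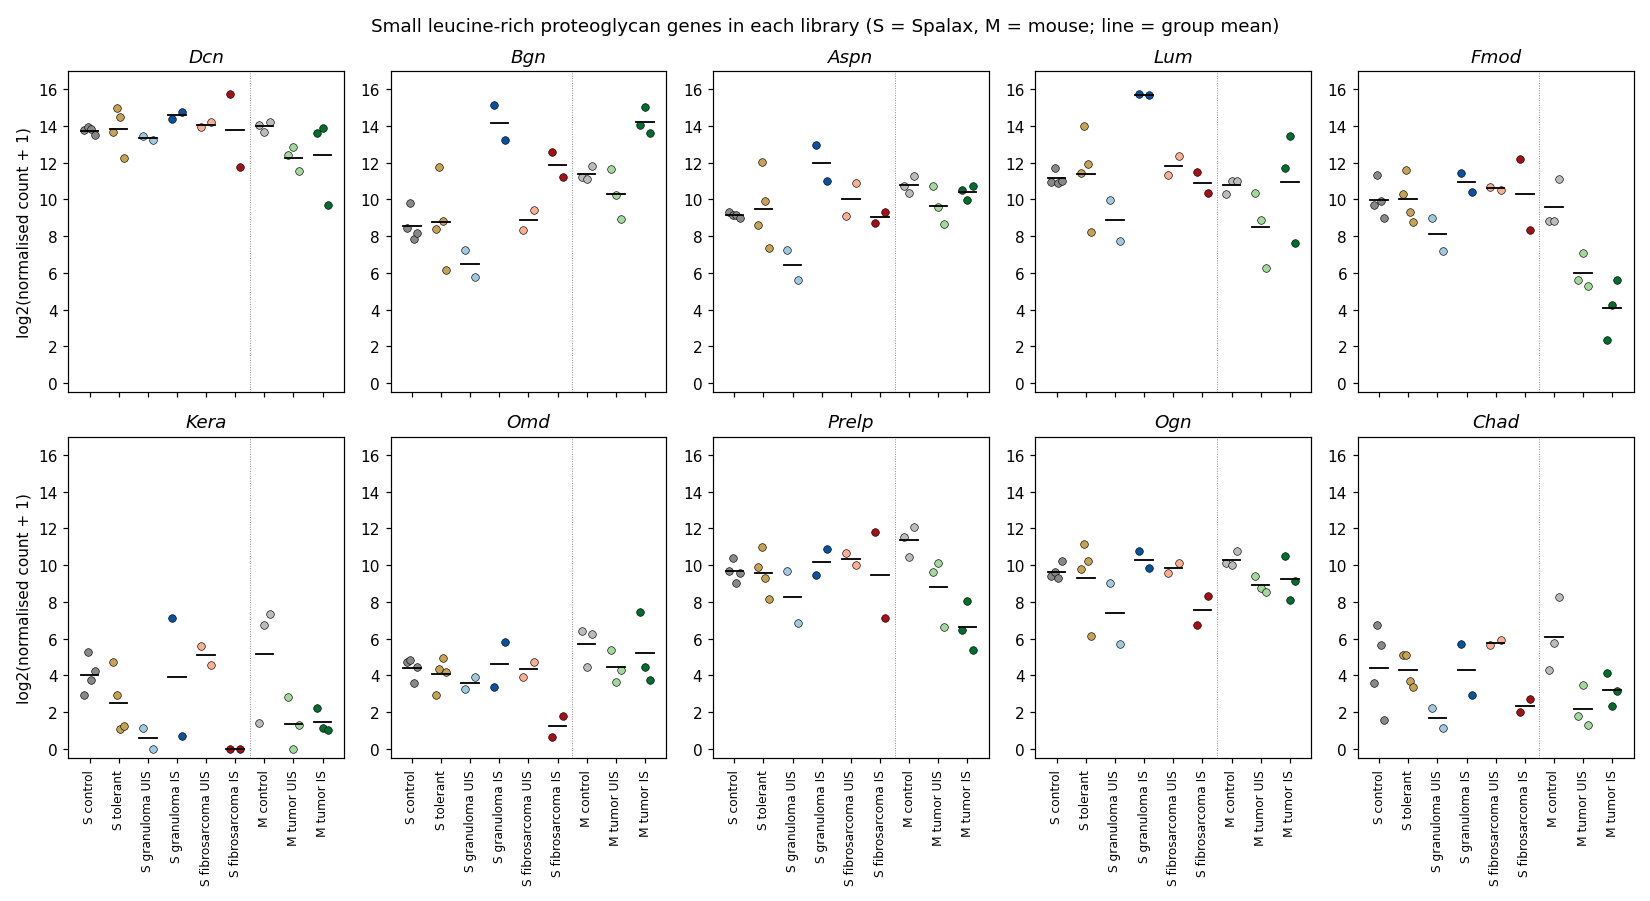
Each panel plots 1 gene as log2(normalised count + 1), with 1 point per library and a line at the group mean, for the 6 Spalax groups (S) and, right of the dotted line, the 3 mouse groups (M). Lum in granuloma IS (54200 and 52461 normalised counts) and Kera at 0 in both fibrosarcoma IS libraries stand out, as does Bgn, which lay above UIS in every IS library.

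Among class II, Lum, a keratan sulfate proteoglycan of connective tissue, was 1017 and 211 in granuloma UIS and 54200 and 52461 in IS, so both IS libraries stood above all other Spalax libraries, the next being tolerant 2251 with 16434. In fibrosarcoma it was 2603 and 5189 in UIS and 2843 and 1302 in IS of 2230 and 2240, which overlapped. In mouse it was 1290.3, 465 and 74.9 in UIS and 3316, 11282 and 198 in IS. Each mouse was higher in IS than in its own UIS, but the groups overlapped through mouse 512. Fmod, which shares a collagen binding site with lumican, was 517 and 147 in granuloma UIS against 2776 and 1370.3 in IS. In fibrosarcoma it was 1652 and 1484 in UIS against 4716 and 326 in IS. Mouse had 457, 462 and 2235 in control, 48.4, 135 and 37.4 in UIS and 4.13, 18.4 and 49 in IS.

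Kera, a keratan sulfate proteoglycan of cornea and tendon, was a low-count gene. It was 6.63 to 37.8 in Spalax control and 48.3 and 23 in fibrosarcoma UIS (34 and 19 reads). In both fibrosarcoma IS libraries it was listed at 0, so fibrosarcoma UIS was at least 19.6-fold higher, against a floor of 3 reads per library. In granuloma UIS it had 1 and 0 reads, and in granuloma IS 193 reads in animal 600 and 1 read in animal 976, so its high mean there came from 1 animal. In mouse control it was 1.63, 108 and 160.3, and in the 6 UIS and IS libraries of mouse at most 6.05. Omd, known from mineralised tissue, was 14.2 and 25.5 in fibrosarcoma UIS and 0.6 and 2.46 in IS. In granuloma UIS it was 8.44 and 14.1 and in IS 9.44 and 56.2, and in mouse IS it ranged from 12.6 to 178. Prelp, which links basement membrane to collagen, was 828 and 114 in granuloma UIS, 721 and 1904 in granuloma IS, 1632 and 1047 in fibrosarcoma UIS, and 3533 and 140.2 in fibrosarcoma IS. In both tumors 1 animal was higher and the other lower in IS. Mouse had 801, 1112 and 97.9 in UIS and 88.9, 265 and 40.5 in IS, each animal being lower in IS.

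Ogn, of class III, was 526 and 51.8 in granuloma UIS and 1749 and 915 in IS. In fibrosarcoma it was 758 and 1126 in UIS and 107 and 323 in IS, with no overlap in either comparison and opposite directions. In mouse it was 692, 435 and 369 in UIS and 1464, 273 and 564 in IS, which overlapped. Chad, a class IV member that binds integrin, was 49.8 and 59.4 in fibrosarcoma UIS and 3 and 5.53 in IS. In granuloma it was 3.62 and 1.18 in UIS and 51.5 and 6.65 in IS. In mouse it was 18.7, 53.2 and 306 in control and at most 16.5 in the UIS and IS libraries.

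The sides of the animals with granuloma were then compared across all genes with limma on log2(normalised count + 1). Of the 10 genes 8 passed the filter of 10 normalised counts in 2 libraries, and Kera and Chad fell under it. Of the 8, 4 were called (adjusted p of at most 0.05 over all genes by limma), all higher in IS. These were Bgn (log2 fold change 7.68, SE 0.80), Lum (6.84, SE 0.77), Aspn (5.54, SE 0.84) and Fmod (2.82, SE 0.71). Lum and Aspn had been selected on these libraries, so their calls are a description only. Ogn (2.92, SE 1.11), Prelp (1.92, SE 1.03), Dcn (1.22, SE 0.42) and Omd (1.03, SE 1.07) were not called. Over all 14735 genes tested 11.7% were called higher and 12.6% lower. Both IS libraries lay above both UIS libraries in 6 of the 8 members and in 35% of all genes, and below in 0 members and in 34.8% of all genes. Without granuloma UIS 976 only Lum (5.71, SE 0.41) was called, with 8.08% of all genes, and Bgn (6.95, SE 0.96), Aspn (4.73, SE 0.96) and Fmod (1.91, SE 0.55) were not. With IS 600 or IS 976 left out, 0 of the 8 were called, with 1.52% and 0.665% of all genes.

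In fibrosarcoma all 10 genes passed the filter, and 5 were called. Bgn was higher in IS (3.03, SE 0.62), and Kera (-5.11, SE 0.61), Chad (-3.44, SE 0.55), Omd (-3.09, SE 0.68) and Ogn (-2.30, SE 0.61) were lower. Kera, Chad and Omd reached 10 normalised counts in UIS only, so the filter favored a call of lower in advance. They had also been selected on these libraries, so their calls are a description only. Aspn (-0.99, SE 0.66), Lum (-0.93, SE 0.54), Prelp (-0.89, SE 1.58), Fmod (-0.33, SE 1.30) and Dcn (-0.31, SE 1.36) were not called. With scaling by total reads, which moved the median of all genes by 0.80, the values of Fmod and Dcn changed sign to 0.47 and 0.49, and on the recovered reads DESeq2 gave 0.64 for Fmod, 0.73 for Dcn and 0.41 for Prelp. The directions of these 3 are thus not settled. Of all 14696 genes tested 17.4% were called higher and 19% lower. IS lay above UIS without overlap in 1 member and in 37.9% of all genes, and below in 4 members and in 36.4%. Without the UIS library of either animal 0 members were called, and 0 of all genes. Without the IS library 2230 or 2240 the call went to 9 and 8 members, and to 56.4% and 57.1% of all genes, each fit then holding a single tumor. Dcn, Fmod and Prelp were called lower without 2230 and higher without 2240.

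**Figure D3:**
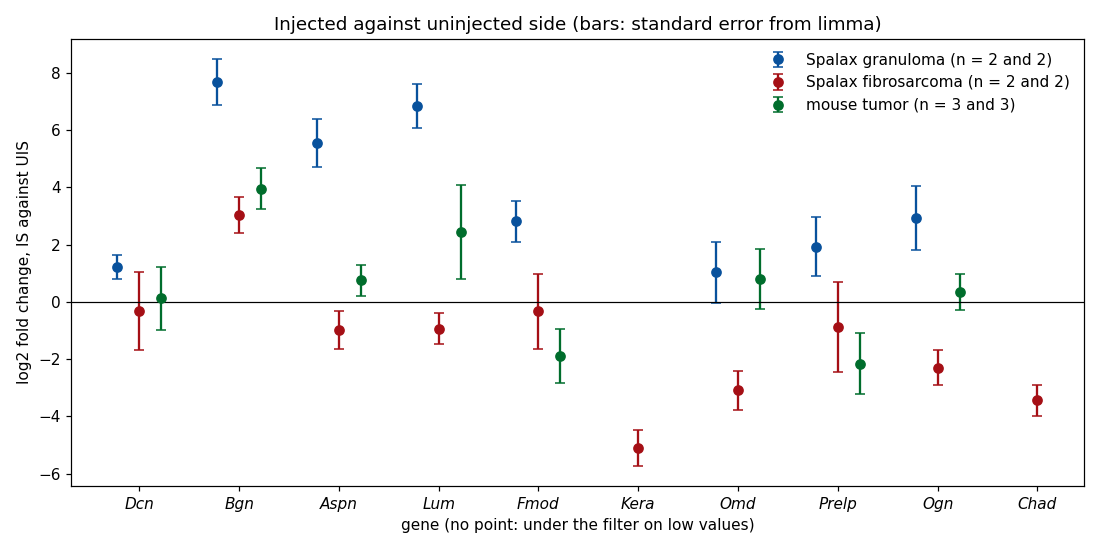
Points give the log2 fold change of IS against UIS on the log2(normalised count + 1) scale for each gene that passed the filter, and bars its standard error from limma, in granuloma and fibrosarcoma of Spalax (2 and 2 libraries each) and in the mouse tumor (3 and 3). Bgn was above 0 in all 3 (7.68, 3.03 and 3.95), while Ogn was 2.92 in granuloma and -2.30 in fibrosarcoma.

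The study described its choice of genes for the Spalax growths, so members were tested in the mouse tumors, but the mouse values were known when the members were chosen and the tests are not independent evidence. Of the 8 that passed the filter, Bgn rose (log2 fold change 3.95, SE 0.73, adjusted p 0.00735 by limma) and was higher in 3 of 3 mice. The other 7 were not called. They were Lum (2.45, SE 1.65, adjusted p 0.261 by limma), Omd (0.79, SE 1.05), Aspn (0.74, SE 0.54), Ogn (0.34, SE 0.62), Dcn (0.12, SE 1.11), Fmod (-1.90, SE 0.94) and Prelp (-2.16, SE 1.08, adjusted p 0.145 by limma). Over all 15220 genes 22.8% were called higher and 22.3% lower, so 1 call among 8 is not above the background. IS lay above UIS without overlap in 1 of the 8 and in 31.1% of all genes, and below in 0 and in 29.2%. With the animal as a replicate block, in which IS and UIS of 1 mouse are paired, 3 members and 44.1% of all genes were called, and Lum (2.45, SE 0.73, adjusted p 0.0487 by limma) and Prelp (-2.16, SE 0.47, adjusted p 0.022 by limma) joined Bgn (adjusted p 0.0107 by limma). In Lum 3 of 3 mice were higher and in Prelp 3 of 3 were lower in IS. Without IS 512 limma called Lum (4.10, adjusted p 0.0443) and Dcn (1.47, adjusted p 0.0461) beside Bgn, and 41% of all genes. Without UIS 512 it called Prelp (-3.24, adjusted p 0.0274) beside Bgn, and 46.1% of all genes. Without UIS 1019 it called Aspn (1.29, adjusted p 0.0498) beside Bgn, and 39.2% of all genes. IS 512 was the lowest IS library in Lum and Dcn. UIS 512 was the lowest UIS library in Prelp, and UIS 1019 the highest in Aspn. Leaving each out thus favors the change then called, and nothing is read from these added calls. Dcn was below 0 without UIS 512 (-0.24), IS 1019 (-0.50) or IS 1023 (-0.62), and was not called.

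The ratio of Bgn to Dcn within a library does not depend on its scaling. It was 0.0162 to 0.0576 in Spalax control, 0.0134 and 0.00552 in UIS of granuloma animals and 1.72 and 0.342 in the granulomas. In fibrosarcoma it was 0.0204 and 0.0356 in UIS and 0.111 and 0.678 in IS of 2230 and 2240. In mouse it was 0.139 to 0.19 in control, 0.16 to 0.597 in UIS and 1.33, 2.24 and 15.01 in IS. All 3 mouse IS libraries were above all 3 of UIS, with geometric means of 3.55 and 0.248 (two-sided exact permutation p = 0.1, the smallest that 3 against 3 allows). The ratio of Lum to Dcn was 2.57 and 1.87 in granuloma IS against 0.0913 and 0.0215 in UIS. In fibrosarcoma it was 0.0511 and 0.374 in IS and 0.166 and 0.272 in UIS.

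The fibrosarcoma response was set against the granuloma response in 1 fit over the 8 libraries. The difference was negative in all 10 members, with a median of -4.94 where the median of all 15584 genes was 0.01. It ran from -1.53 (Dcn, SE 1.54) and -2.81 (Prelp, SE 2.13) to -7.78 (Lum, SE 1.06) and -8.45 (Kera, SE 2.66). Limma called 0 members and 0% of all genes. At an unadjusted p under 0.05 there were 7 of the 10 members and 4.92% of all genes. As 5 of the 10 had been selected on these libraries, such counts are favored in advance. Nothing is read from them here or in the IS and UIS comparisons that follow. DESeq2 on the recovered reads called 5 members and 0.565% of all genes, and edgeR 0 members. Without granuloma UIS 976 all 10 differences stayed negative, from -1.39 (Prelp) and -1.44 (Dcn) to -6.645 (Lum) and -7.88 (Kera). Both sides added to this difference. In IS, fibrosarcoma against granuloma gave negative values in all 7 members tested, although DESeq2 and edgeR turned Dcn (0.23 and 0.25), Fmod (0.24 and 0.27) and Prelp (0.45 and 0.47) positive. Among the 7 were Lum (-4.79, SE 0.51), Aspn (-2.96, SE 0.70), Ogn (-2.76, SE 0.67) and Bgn (-2.29, SE 0.84). Both fibrosarcoma libraries lay below both granuloma libraries in 4 of 7 and in 14.7% of all genes. In this fit limma called 0 members and 0% of all genes. At an unadjusted p under 0.05 there were 4 members and 4.06% of all genes, and DESeq2 called 3 members and 1.05% of all genes.

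In UIS, fibrosarcoma lay above granuloma without overlap in all 10 members, which 18.9% of all genes did. The values ran from Dcn (0.73, SE 0.32) and Omd (0.75, SE 0.70) to Chad (4.13, SE 0.73) and Kera (4.54, SE 0.90). Kera and Chad passed the filter through fibrosarcoma UIS only, so their place above granuloma was favored in advance. Limma called 0 members and 0% of all genes, 6 members and 4.06% of all genes had an unadjusted p under 0.05, and DESeq2 called 2 members and 0.915% of all genes. Without granuloma UIS 976 all 10 values stayed positive (0.63 to 3.96), Lum falling to 1.85 and Ogn to 0.81, and limma called 5 members and 2.58% of all genes. Without granuloma UIS 600 it called 9 members and 37% of all genes. The fibroblast markers were 4227 and 8480 in granuloma UIS and 11340 and 25371 in fibrosarcoma UIS, and the tendon markers were 1645 and 1372 against 3202 and 5465. Their part in the SLRP difference was not tested. Granuloma UIS thus held the lowest group mean of Spalax in 7 members, namely Dcn, Bgn, Aspn, Lum, Fmod, Prelp and Chad.

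Uninjected muscle was next compared with untreated controls. In Spalax the 4 UIS libraries against the 4 controls gave values below 0 in all 10 members (-0.04 for Dcn to -1.21 for Kera), of which Dcn, Aspn (0.23) and Prelp turned positive with DESeq2 and edgeR, and limma called 0 members and 0% of 13909 genes, the members' adjusted p being 0.531 to 0.951. No member had an unadjusted p under 0.05, where 16.6% of all genes had one. EdgeR and DESeq2 called 0 of the 10, and DESeq2 3.71% of all genes. Without granuloma UIS 976, 5 of the 10 values were above 0 (Prelp 0.45, Chad 0.20, Dcn 0.11, Fmod 0.11 and Lum 0.08). Tolerant against control likewise gave 0 calls among the 10 members and 0% of 14020 genes by limma, 0 members and 5.23% of all genes at an unadjusted p under 0.05, and 0 members by edgeR and DESeq2, the latter calling 0.428% of all genes. The fold changes ran from -1.56 (Kera, SE 0.89, adjusted p 0.923 by limma) to 0.31 (Aspn, SE 0.80). Tolerant 2251 had the highest value of the group in 7 members, with 32391 for Dcn, 16434 for Lum, 4202 for Aspn and 3425 for Bgn, against 4837 to 23348, 295 to 3943, 162 to 950.4 and 71 to 461 in the other 3. Without it all 10 fold changes were below 0, with adjusted p of 0.888 to 0.975 by limma. The part of the fibroblast markers in its values was not tested.

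In mouse, UIS against control gave values below 0 in all 9 members that passed the filter. The largest were Chad (-3.92, SE 1.07), Fmod (-3.61, SE 0.73), Prelp (-2.56, SE 0.90), Lum (-2.28, SE 0.92), Dcn (-1.69, SE 0.37) and Ogn (-1.39, SE 0.33). Chad passed the filter through the controls, with 1.44 to 10.3 normalised counts in UIS, so its fall was favored in advance. Limma called 0 of the 9 and 0% of 14792 genes, with adjusted p of 0.319 to 0.512 for the members, while 6 of the 9 had an unadjusted p under 0.05, where 7.48% of all genes had one and a lower value. In 5 of the 9 (Dcn, Fmod, Prelp, Ogn and Chad) all 3 UIS libraries lay below all 3 controls, as in 11.7% of all genes. EdgeR called 0 members, and DESeq2 called 2.31% of all genes and 4 members, namely Dcn (-1.58, adjusted p 0.00837), Fmod (-3.81, adjusted p 0.000153), Ogn (-1.34, adjusted p 0.0304) and Chad (-4.68, adjusted p 0.00191). Tendon markers moved with this, with summed counts of 1545 to 4514 in mouse control and 306 to 545 in UIS, and so did fat markers, with 86872 to 130809 and 7057 to 75734. Fibroblast markers overlapped, with 8212 to 42492 and 1248 to 24643. The part of these markers in the result was not tested. In both species the controls carried dual and the UIS libraries single sequencing indexes, so index and group cannot be told apart.

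**Figure D4:**
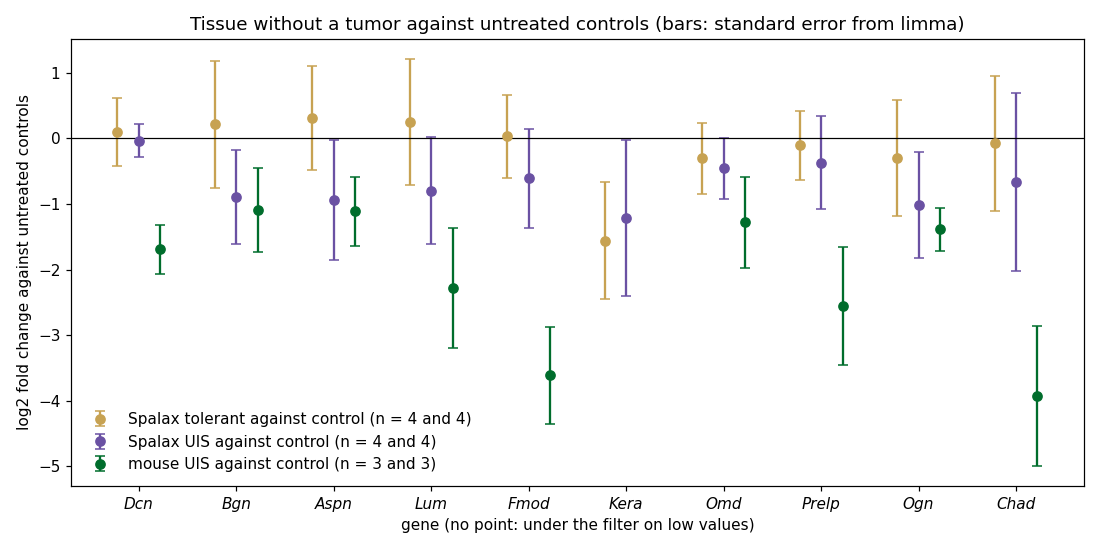
Points give the log2 fold change against untreated controls on the log2(normalised count + 1) scale for each gene that passed the filter, and bars its standard error from limma, for Spalax tolerant and Spalax UIS (4 against 4 libraries each) and mouse UIS (3 against 3). All 9 mouse values were below 0, with Chad at -3.92 and Fmod at -3.61.

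Responses of both species were set side by side over genes shared by symbol. The Spalax fibrosarcoma response minus the mouse response was -3.88 for Omd (SE 1.59), -3.38 for Lum (SE 2.28), -2.64 for Ogn (SE 0.99), -1.74 for Aspn (SE 0.93), -0.92 for Bgn (SE 1.12), -0.43 for Dcn (SE 1.95), 1.27 for Prelp (SE 2.04) and 1.57 for Fmod (SE 1.71). Limma called 0 of these 8 members and 3.95% of 11085 genes. At an unadjusted p under 0.05 there were 2 members, Omd and Ogn, and 21.6% of all genes. DESeq2 called Omd (-5.28) and 15.4% of all genes, and edgeR called 0 members. In Spalax, Omd passed the filter through UIS only, so a negative value was favored in advance.

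Genes whose group means over the 9 groups were most like those of a member were found among 11411 genes by the root mean square difference of centred log2 means. For Lum these were Col8a2, a short-chain collagen (0.68), Pdgfrl (0.93) and Moxd1 (0.94). For Dcn they were Sulf2, which trims heparan sulfate (0.25), Chst7, a chondroitin sulfotransferase (0.27), and Tlcd1 (0.31). The spread between animals does not enter this measure. The log2 group means of Dcn spanned only 12.28 to 14.57, while its SD was 2.83 in fibrosarcoma IS. For Kera they were Chad (0.65), the tendon gene Tnmd (0.97) and Ogn (1.05). Tnmd was 86.7 and 36.4 in fibrosarcoma UIS and 0 in both IS libraries. In granuloma it was 1.21 and 1.18 in UIS and 382 and 13.3 in IS, with animal 600 high as for Kera. In mouse Tnmd was 55.4 to 330.5 in control, 5.76 to 16.9 in UIS and 3.56 to 33.1 in IS.

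Partners of the family were read from lists of genes named for their known role. Of all genes 11.7% in granuloma, 17.4% in fibrosarcoma and 22.8% in mouse were called higher, and 12.6%, 19% and 22.3% lower. The list counts stand beside these shares and were not tested against them. Of 11 collagens known to be bound by the family and tested in granuloma 10 were called higher, with Col11a1 (10.67, SE 0.91) and Col1a1 (9.15, SE 0.66) at the top, and the list's median was 6.60. In fibrosarcoma 6 of 10 were called higher (Col1a1 4.67, SE 0.77, and Col1a2 4.42, SE 0.50) with a median of 3.67, and in mouse 11 of 11 (Col1a1 5.64, SE 1.23, and Col3a1 5.57, SE 1.25) with a median of 4.61. The medians of all genes were -0.01, 0.03 and 0.11. Of the SLRPs tested, 4 of 8 in granuloma, 1 of 10 in fibrosarcoma and 1 of 8 in mouse were called higher. In fibrosarcoma 4 further SLRPs were called lower, of which Kera, Chad and Omd passed the filter through UIS only. The difference between the lists was not tested. Enzymes that build chondroitin and dermatan sulfate chains gave 8 higher and 1 lower call of 20 in granuloma, 9 and 2 of 20 in fibrosarcoma and 11 and 1 of 20 in mouse. Chsy3, a chondroitin synthase, had the highest value in granuloma (6.26, SE 0.98) and fibrosarcoma (4.51, SE 0.58), and the sulfotransferase Chst13 in mouse (4.50, SE 1.31). Csgalnact2, which starts the chains, was lower in both Spalax growths (-1.48, SE 0.34, and -2.47, SE 0.30). Enzymes of keratan sulfate gave 3, 1 and 2 higher calls of 6, 7 and 5, and the sulfotransferase Chst2 was called in all 3 (3.23, 3.69 and 4.20).

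Proteases known to cut SLRPs gave 7 higher calls of 8 in granuloma, 7 of 8 in fibrosarcoma and 7 of 9 in mouse, and none lower. For these and the lists below, 11.7%, 17.4% and 22.8% of all genes were called higher in the 3 growths, and 12.6%, 19% and 22.3% lower. Mmp3 was called at 10.39 (SE 0.71) and 8.53 (SE 1.65) in the Spalax growths, and Mmp13 at 7.01, 7.10 and 5.19 in the 3 growths. Of TGF-beta ligands, Tgfb3 (3.01, SE 0.50) and Tgfb1 (2.35, SE 0.48) were higher in granuloma, Tgfb2 was lower in fibrosarcoma (-2.73, SE 0.40), and Tgfb1 rose in mouse (2.22, SE 0.63). Of the receptors reported to bind SLRPs, Tlr2, an innate immune receptor bound by biglycan, was called higher in granuloma (4.54, SE 1.02), fibrosarcoma (4.28, SE 0.39) and mouse (2.92, SE 0.73). In all, 2 of 9, 3 of 8 and 5 of 10 receptors were called higher, with Erbb4 lower in granuloma (-4.36, SE 0.83). Other proteoglycans gave 6, 5 and 11 higher calls of 19 each, with the large hyaluronan-binding Vcan at 5.24 (SE 0.70) in granuloma and 5.19 (SE 0.84) in mouse, and the cell-surface Sdc1 at 4.43 (SE 0.57) in fibrosarcoma, where Gpc4 was lower (-2.66, SE 0.52). Among further leucine-rich proteoglycans 0 of 4 were called in either Spalax growth. In mouse Podnl1 (5.59, SE 1.35) and Optc (2.79, SE 0.55) rose and Nepn (-3.80, SE 0.98) and Ecm2 (-2.07, SE 0.38) fell among 7 tested.

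Markers of cells that could bring SLRPs were read beside these results. Of 4 tendon markers tested in fibrosarcoma, 3 were called lower in IS, as were 19% of all genes. Tnmd was at -5.84 (SE 0.65) and Thbs4 at -4.90 (SE 0.83), in the growth where Kera, Chad, Omd and Ogn were lower. Tnmd, Kera, Chad and Omd passed the filter there through UIS only. The summed counts of the tendon markers were 3202 and 5465 in UIS and 129 and 355 in IS. In granuloma IS the tendon sum was 5988 in animal 600 and 196 in animal 976, and 0 of 4 tendon markers were called. Kera, Chad, Ogn, Bgn, Aspn, Lum and Fmod were also higher in animal 600 there. Omd (9.44 and 56.2), Prelp (721 and 1904) and Dcn (21124 and 28090.5) had the opposite order. Fibroblast markers gave 6 of 7 higher calls in granuloma, 2 of 7 in fibrosarcoma and 4 of 8 in mouse, against 11.7%, 17.4% and 22.8% of all genes. Of these markers 3 (Col1a1, Col1a2 and Col3a1) are also in the collagen list. Bone markers summed to 137.8 to 183.6 in granuloma IS, 220.7 to 252.7 in fibrosarcoma IS and 719.5 to 1058.5 in mouse IS. In UIS they summed to 26.5 to 49.5, 46.9 to 66.7 and 35.1 to 125.8. Cartilage markers summed to 145 to 620, 148 to 648 and 1258 to 1810 in IS. In UIS they summed to 39.8 to 40, 41.2 to 46.9 and 72.2 to 573. The mouse IS cartilage sum rests on few genes, as 2 of the 7 markers reached 10 normalised counts. The part of these cell markers in the SLRP results was not tested.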

How the data were processed

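RNA-seq libraries (TruSeq Stranded kit, 101 cycles) came from 16 Spalax and 9 mouse samples. The authors aligned reads with TopHat (version 1.4.1 in the submitters' processing notes, which also name GRCm38), counted them per gene with HTSeq and deposited 1 table per species, whose values are a signal, namely read counts divided by 1 size factor per library. One read was worth 0.600 to 1.42 in Spalax and 0.517 to 1.44 in mouse, and 100% of values came out as whole reads within 0.01 of a read. Where these recovered reads were tested, edgeR 4.0.16 and DESeq2 1.42.0 were used. A comma in Spalax gene names was read as t, by which 2308 of 2387 such names matched a mouse name, against 96 without it.

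The main test was limma 3.58.1 (R 4.3.3) with an intensity trend on log2(value + 1), over genes that reached a value of 10 in at least the number of libraries of the smaller group, with Benjamini-Hochberg adjustment and calls at 0.05. Fold changes on this scale understate low genes. Only the compared groups entered a fit, without covariates. P-values measure the spread between animals, and floors (3 reads) cover counting error only. Alternatives were a pseudocount of 0.1, no filter, scaling by total reads, edgeR, DESeq2, leaving out each library, the animal as replicate block, and 1 model over all libraries of a species. In simulated counts with 200 genes changed 4-fold, limma recovered 75.5% for granuloma (14230 genes) and 95% for mouse (14783 genes). These counts had a fixed dispersion of 0.1 and as many rises as falls. The spread between the real animals was not used, so these shares are not the power of the real comparisons. Same-animal deviations correlated at 0.0469 to 0.178 in the 3 mouse pairs, at 0.00925 in granuloma and at -0.00186 in fibrosarcoma, and the pairing comes from the animal numbers of the labels.

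Genes named are the 10 members, the nearest genes by likeness, and the list genes with the largest called change in each direction. Members and lists were chosen with earlier results of these data known. Exon lengths, proteins and sequences came from GENCODE vM21 (GRCm38), and Python 3.11.15 and biopython 1.88 were used.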

Additional observations from a re-analysis of the deposited data

Results flagged for a closer look

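Only Spalax control and Spalax tolerant held 4 libraries each, and 22 sets of 4 values from them were tested for a value far from the others. In 2 sets a value stood out. The cut used flags about 1 in 20 sets of normally distributed values. These sets share libraries and hold untransformed counts, so that rate was not established here and nothing is read from the number of flags. Bgn in tolerant 2251 was 3425 normalised counts against 71.0 to 461 in the other 3. Lum in Spalax control 1075 was 3400 against 1921 to 2028 in the other 3.

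In 5 members both animals with granuloma moved one way between UIS and IS and both with fibrosarcoma the opposite way. This opposition of single animals was not tested, and the fit of the difference called none of the 5 by limma. For animal 976 it rests on the UIS library whose read label has a different animal number. Aspn, Kera, Omd and Chad had been selected on these libraries. The share of all genes with such opposition was not computed, so nothing is read from the count. Aspn had log2 fold changes of 5.54 and -0.99, Omd of 1.03 and -3.09, and Ogn of 2.92 and -2.30 in granuloma and fibrosarcoma. Kera was 140.1 in IS and 1.21 in UIS of animal 600 and 0.604 in IS and 0 in UIS of animal 976, the latter a matter of 1 read, and its fibrosarcoma value was -5.11. Chad was 51.5 in IS and 3.62 in UIS of animal 600 and 6.65 and 1.18 in animal 976, and its fibrosarcoma value was -3.44.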

How the results depend on the processing

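Of 1138 values of single members under the alternatives, 989 kept their sign and their side of the threshold. The sign changed in 71 of them, 44 of these on leaving out 1 library. A call was lost in 32 values and gained in 49. Of the 71, 3 were called, namely Dcn, Fmod and Prelp in fibrosarcoma without IS 2240. Members called in granuloma numbered 4, and 0 to 5 on leaving out 1 library. In fibrosarcoma they numbered 5, then 3 without a filter, 2 in 1 model over all libraries, and 0 to 9 on leaving out 1 library. In the mouse tumor they numbered 1, then 2 with scaling by total reads, 3 with DESeq2, 3 with the replicate block, and 1 to 3 on leaving out 1 library. The replicate block changed no other count by over 1.5 times. DESeq2 called 5 members where limma called 0 in the difference between the Spalax growths, 3 between their IS, 2 between their UIS (0 to 9 on leaving out 1 library), 4 in mouse UIS against control and 1 in the species difference, where fitting without a filter also gave 1. The cause of these shifts was not tested.

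Scaling by total reads moved the median of all genes by 0.73 in granuloma, 0.80 in fibrosarcoma, 1.06 in the mouse tumor, 0.12 in tolerant, -0.27 in mouse UIS and -0.26 in the species difference. Values that changed sign in Spalax UIS against control were, with edgeR, Dcn 0.0126, Aspn 0.229 and Prelp 0.059, and with DESeq2 Dcn 0.0208, Aspn 0.229 and Prelp 0.0664. In tolerant against control they were Chad 0.0115 with a pseudocount of 0.1, Prelp 0.0165 and Chad 0.0264 with scaling by total reads, Prelp 0.20 and Ogn 0.50 with edgeR, and Prelp 0.18 and Ogn 0.48 with DESeq2.

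Leaving out 1 library gave, in granuloma, -0.20 to 2.26 for Omd, and in fibrosarcoma -2.31 to 1.69 for Dcn, -2.26 to 1.59 for Fmod and -3.21 to 1.43 for Prelp, which DESeq2 and edgeR also made positive. Between the Spalax IS it gave -2.81 to 1.19 for Dcn, -2.58 to 1.27 for Fmod and -3.05 to 1.59 for Prelp. In the difference between the Spalax growths it gave -3.53 to 0.47 for Dcn, and in the species difference -2.43 to 1.57 for Dcn, -0.36 to 3.49 for Fmod and -1.06 to 3.59 for Prelp. It gave, in the mouse tumor, -0.62 to 1.47 for Dcn, -0.33 to 1.52 for Omd and -0.29 to 0.92 for Ogn. In Spalax UIS against control it gave -0.21 to 0.11 for Dcn, -1.46 to 0.0778 for Lum, -1.05 to 0.11 for Fmod, -0.82 to 0.45 for Prelp and -1.60 to 0.20 for Chad. In tolerant against control it gave -0.28 to 0.64 for Dcn, -0.77 to 1.09 for Bgn, -0.54 to 1.02 for Aspn, -0.62 to 1.31 for Lum, -0.50 to 0.48 for Fmod, -0.58 to 0.0893 for Omd, -0.57 to 0.37 for Prelp, -0.92 to 0.76 for Ogn and -1.02 to 0.70 for Chad. A library alone in its arm was assumed to vary like the other group. Depth limits Kera, Omd and Chad, which had few reads in many libraries.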

Other observations

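Epyc (epiphycan), a class III relative of Ogn known from growth cartilage, was 2729 normalised counts in granuloma IS of animal 976 and 11.6 in animal 600, and at most 5.67 in the other 23 libraries. It was singled out after its values were seen, and was not called (log2 fold change 6.96, SE 2.51).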
